A study of Rattus norvegicus with 22 samples.

Results

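The genes described here set how far a stressed cell slows protein synthesis: the kinases that phosphorylate the initiation factor eIF2alpha (Eif2ak1, Eif2ak2, Eif2ak3 and Eif2ak4), the subunits that direct protein phosphatase 1 to remove that phosphate (Ppp1r15a and Ppp1r15b), and the translation brakes Eif4ebp1 and Sesn2. They were found by symbol in the platform annotation. Of the 8 genes, 6 had a probe set with a single symbol, 1 each, out of 18166 genes measured in this way. Eif2ak2 and Sesn2 were not analysed here. In RefSeq's GRCr8 annotation Eif2ak1 lies at chr12:15824431-15858266, Eif2ak3 at chr4:104363838-104425271, Eif2ak4 at chr3:125810207-125895574, Ppp1r15a at chr1:105136521-105139596, Ppp1r15b at chr13:47130000-47137805 and Eif4ebp1 at chr16:71495457-71508845.

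Liver RNA was measured on 22 Affymetrix whole-transcript arrays, 1 per rat. The rats were female Crl:CD(SD), an outbred Sprague-Dawley stock, 12 weeks old per the labels (the protocol gives a range around this age). The 10 GSK932121A rats had received a single intraperitoneal dose of 50 mg/kg of this inhibitor of complex III, the respiratory chain complex that hands electrons from ubiquinol to cytochrome c, and their livers were taken after 5 hours. The 12 vehicle rats had received the formulation without the compound, and the labels give no time for them. The RNA came from the median lobe, and 2 dosed animals with little compound in plasma had been left out by the submitters.

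When eIF2alpha is phosphorylated, it blocks its own exchange factor, eIF2B. Most initiation then slows, while a few messenger RNAs with upstream reading frames, such as that of the transcription factor ATF4, are translated more. This is the integrated stress response, and GADD34, the product of Ppp1r15a, is one of its induced products and closes the loop by dephosphorylating eIF2alpha. The kinases act through protein activity and their own phosphorylation, which an array of messenger RNA does not measure.

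The promoters of both phosphatase subunit genes are shown because these paralogs differed between the groups in opposite directions. Each sequence runs 5′ to 3′ on the gene's strand from 250 bases before to 50 bases after the annotated start (RefSeq, GRCr8), and capitals mark motif matches. Ppp1r15a lies at chr1:105139547-105139846 on the minus strand and Ppp1r15b at chr13:47129750-47130049 on the plus strand.
Ppp1r15a: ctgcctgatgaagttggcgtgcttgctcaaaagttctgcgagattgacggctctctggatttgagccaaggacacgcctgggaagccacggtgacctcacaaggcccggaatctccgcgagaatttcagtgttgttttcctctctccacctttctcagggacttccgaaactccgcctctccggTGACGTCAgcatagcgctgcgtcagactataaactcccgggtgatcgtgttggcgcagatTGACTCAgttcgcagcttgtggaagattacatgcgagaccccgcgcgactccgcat
Ppp1r15b: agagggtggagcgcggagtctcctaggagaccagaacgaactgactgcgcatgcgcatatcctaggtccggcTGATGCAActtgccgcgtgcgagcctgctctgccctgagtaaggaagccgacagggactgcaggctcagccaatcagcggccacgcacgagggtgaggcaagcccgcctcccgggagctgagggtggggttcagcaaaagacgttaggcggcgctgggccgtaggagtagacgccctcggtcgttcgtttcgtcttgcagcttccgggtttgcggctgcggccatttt

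Both strands were searched for 4 motifs. TGACGTCA, the cAMP response element, was found in Ppp1r15a at bases -66 to -59 from the start and in 1.83% of all 33469 promoters of the table. TGACTCA, a site of AP-1 (the dimer of Fos and Jun proteins), was found in Ppp1r15a at -6 to 1 and in 4.63% of all promoters. TGATGNAA, the core of the element that binds heterodimers of C/EBP and ATF proteins such as ATF4, was found in Ppp1r15b at -178 to -171 and in 3.98% of all promoters. The endoplasmic reticulum stress element, CCAAT and CCACG with 9 bases between them, matched 0.0657% of all promoters. It matched none of the 5 measured members with a promoter in the table, which lacks Eif4ebp1. These matches do not overlap one another, and the windows of Eif2ak1, Eif2ak3 and Eif2ak4 held none of the 4 motifs. A match is a description of the letters and not evidence of binding.

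The comparison of GSK932121A with vehicle asked which of these genes differed in liver after inhibition of complex III. Ppp1r15a rose, Ppp1r15b fell, Eif4ebp1 fell with a call near its limit, and the 3 measured kinase genes did not pass. In all, 3 of the 6 members passed at an adjusted p under 0.05 in limma, against 12.4% of all genes tested. Of them 1 rose, against 5.31% of all genes, and 2 fell, against 7.05%. An unadjusted p under 0.05 was reached by 5 of the 6, against 24% of all genes. The median log2 difference was -0.08 over the 6 members and -0.01 over all genes. In bulk liver, fewer cells of a type and less RNA per cell cannot be told apart.

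**Figure D1:**
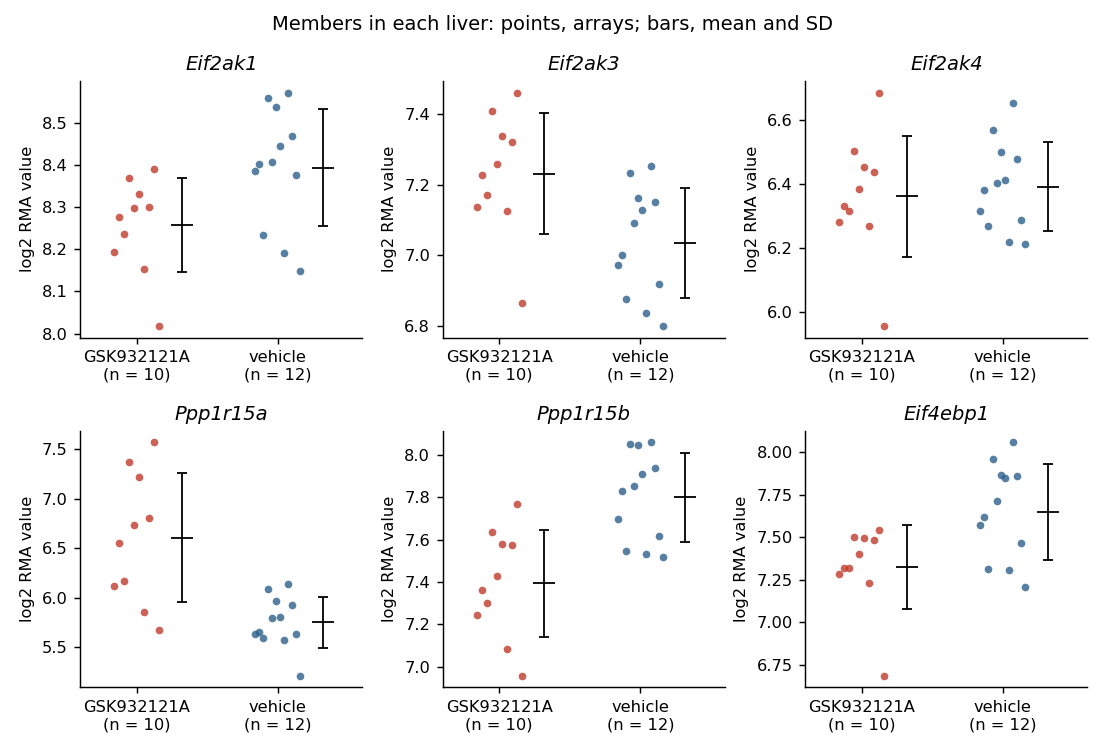
Log2 RMA value (vertical axes) of the 6 measured members on each array, with GSK932121A left of vehicle. Points are arrays and bars are mean and SD (n = 10 and 12). Ppp1r15a reaches up to 7.57 in GSK932121A livers and no higher than 6.14 in vehicle livers, while Ppp1r15b lies lower in GSK932121A livers.

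Among the phosphatase subunits, Ppp1r15a encodes the inducible one, GADD34. Its log2 value had a minimum of 5.68, a median of 6.64 and a maximum of 7.57 in GSK932121A livers, against 5.21, 5.73 and 6.14 in vehicle livers. The groups overlapped at the low end of the GSK932121A livers: 7 of 10 lay above every vehicle liver, a separation upwards that 2.84% of all genes reached or exceeded, and replicates 20, 21 and 24 lay within the vehicle range. The mean was 6.61 ± 0.65 in GSK932121A livers and 5.75 ± 0.26 in vehicle livers (SD, n = 10 and 12), a 1.81-fold rise, or 0.85 ± 0.18 (SE) on the log2 scale (limma, adjusted p = 0.00222). The SD among GSK932121A livers was 2.53 times that among vehicle livers, the largest such ratio of the 6 members.

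Ppp1r15b encodes CReP, the constitutively made subunit that holds eIF2alpha phosphorylation low in unstressed cells. Its log2 value had a minimum of 6.96, a median of 7.39 and a maximum of 7.77 in GSK932121A livers, against 7.52, 7.84 and 8.06 in vehicle livers. All 10 GSK932121A livers lay below the vehicle median, and 6 of them below every vehicle liver, a separation downwards that 4.32% of all genes reached or exceeded. The mean was 7.39 ± 0.25 in GSK932121A livers and 7.80 ± 0.21 in vehicle livers (SD, n = 10 and 12), a 1.33-fold fall, or -0.41 ± 0.10 (SE) on the log2 scale (limma, adjusted p = 0.00477).

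The difference between the paralogs' responses was tested directly. The per-array difference, Ppp1r15a minus Ppp1r15b, averaged -0.79 ± 0.83 in GSK932121A livers and -2.05 ± 0.37 in vehicle livers (SD, n = 10 and 12). It shifted by 1.26 ± 0.27 (SE) on the log2 scale (two-sided permutation test, p = 0.00012, adjusted p = 0.0006 over the 5 contrasts tested), with 7 of 10 GSK932121A livers above every vehicle liver. Within the GSK932121A group the livers with the most Ppp1r15a tended to have less Ppp1r15b, but this did not pass after adjustment. Pearson's r was -0.60 (permutation p = 0.0679, adjusted p = 0.338 over 15 pairs), Spearman's rho was -0.64 (permutation p = 0.0546, adjusted p = 0.206), and r was -0.66 without the 2 arrays farthest from the Ppp1r15a median.

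**Figure D2:**
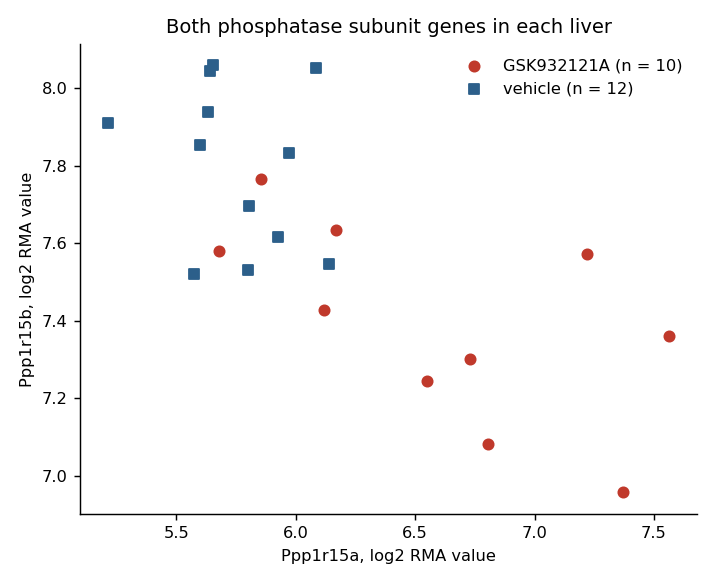
Ppp1r15a (horizontal axis) against Ppp1r15b (vertical axis), both as log2 RMA values, 1 point per liver (GSK932121A n = 10, vehicle n = 12). GSK932121A livers extend to the lower right, with Ppp1r15a up to 7.57 and Ppp1r15b down to 6.96, and 3 of them lie within the vehicle range of Ppp1r15a.

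The catalytic subunits that both proteins recruit did not pass. Of 6 measured phosphatase partners 1 passed, 16.7% against 12.4% of all genes. Ppp1r2, inhibitor-2 of protein phosphatase 1, rose 1.38-fold (limma, adjusted p = 3.55e-05). It stood at 8.19 ± 0.15 in GSK932121A livers and 7.73 ± 0.15 in vehicle livers (SD, n = 10 and 12), with 9 of 10 GSK932121A livers above every vehicle liver. Ppp1ca, Ppp1cb and Ppp1cc, the genes of the catalytic subunits, differed by 0.02, -0.03 and -0.13 on the log2 scale.

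Of the kinases, Eif2ak3 encodes PERK, the sensor of unfolded protein in the endoplasmic reticulum. Its log2 value had a minimum of 6.86, a median of 7.24 and a maximum of 7.46 in GSK932121A livers, against 6.80, 7.05 and 7.25 in vehicle livers. The ranges overlapped, although 9 of 10 GSK932121A livers lay above the vehicle median and 5 above every vehicle liver. The difference was 0.20 ± 0.07 (SE) on the log2 scale and did not pass (limma, adjusted p = 0.0849). It passed after renewed quantile normalisation (adjusted p = 0.0421), after cyclic loess normalisation (0.0236), among genes with a mean log2 value of at least 5 (0.0497) and without GSK932121A replicate 23, the lowest liver of its group (0.24, adjusted p = 0.0252).

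Eif2ak1 encodes HRI, which heme binding holds inactive and which in human cells relays mitochondrial stress through OMA1 and DELE1. Its log2 value had a minimum of 8.02, a median of 8.29 and a maximum of 8.39 in GSK932121A livers, against 8.15, 8.40 and 8.57 in vehicle livers. All 10 GSK932121A livers lay below the vehicle median, but only 1 below every vehicle liver. The difference of -0.14 ± 0.06 (SE) on the log2 scale did not pass (limma, adjusted p = 0.173). Dele1 and Oma1, the relay genes, differed by -0.24 ± 0.09 and -0.00258 ± 0.0702 (SE), which did not pass either (adjusted p = 0.0827 and 0.989). Dele1 passed without GSK932121A replicate 21 (adjusted p = 0.0153), and the sign of the Oma1 difference changed with the normalisation.

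Eif2ak4 encodes GCN2, the sensor of uncharged transfer RNA. Its log2 value had a minimum of 5.96, a median of 6.36 and a maximum of 6.68 in GSK932121A livers, against 6.21, 6.39 and 6.65 in vehicle livers, and the ranges overlapped almost throughout. The difference was -0.03 on the log2 scale with a 95% interval from -0.18 to 0.12 (limma, adjusted p = 0.863), and its sign turned with cyclic loess normalisation (0.00302) and without GSK932121A replicate 24 (0.0148). The list of 10 measured kinase regulators, which holds the GCN2 partner Gcn1 and the PERK inhibitor Dnajc3, had 0 genes that passed in limma, against 12.4% of all genes, and 2 at an unadjusted p under 0.05, against 24% of all genes.

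The kinase genes did not all respond alike. The difference Eif2ak3 minus Eif2ak4 was 0.87 ± 0.23 in GSK932121A livers and 0.65 ± 0.14 in vehicle livers (SD, n = 10 and 12), a shift of 0.23 ± 0.08 (SE; two-sided permutation test, adjusted p = 0.0163 over 5 contrasts). The difference Eif2ak1 minus Eif2ak3 was 1.03 ± 0.20 in GSK932121A livers and 1.36 ± 0.24 in vehicle livers, a shift of -0.33 ± 0.10 (SE; permutation test, adjusted p = 0.00657). So the PERK gene moved upwards relative to both other kinase genes, although none of the 3 passed alone. Eif2ak1 minus Eif2ak4 shifted by -0.11 with a 95% interval from -0.29 to 0.08 (permutation test, adjusted p = 0.311).

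**Figure D3:**
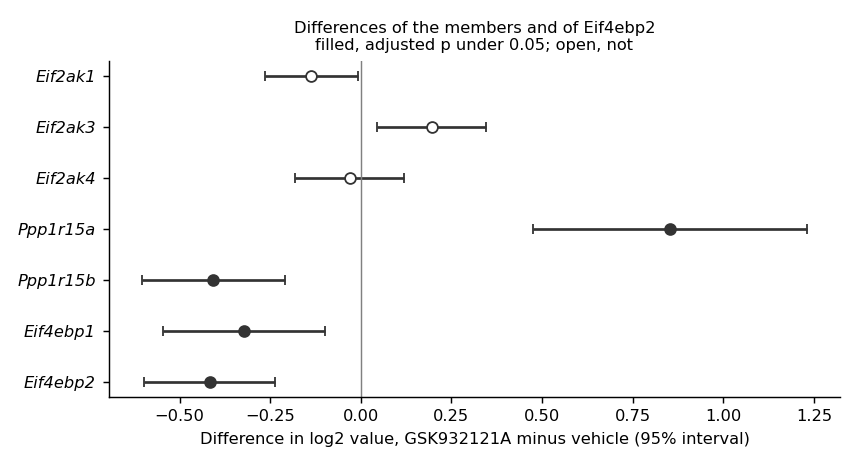
Difference in log2 value, GSK932121A minus vehicle (horizontal axis), with the 95% interval from limma for the 6 measured members and for Eif4ebp2. Filled points passed at an adjusted p under 0.05: Ppp1r15a at 0.85 lies to the right of 0, and Ppp1r15b, Eif4ebp1 and Eif4ebp2 lie to the left.

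Eif4ebp1 encodes 4E-BP1, which binds the cap-binding factor eIF4E and blocks initiation until the kinase complex mTORC1 phosphorylates it. Its log2 value had a minimum of 6.69, a median of 7.36 and a maximum of 7.54 in GSK932121A livers, against 7.21, 7.67 and 8.06 in vehicle livers. All 10 GSK932121A livers lay below the vehicle median, 8 of 12 vehicle livers lay above every GSK932121A liver, and the lowest value, GSK932121A replicate 13, stood apart from its group. The mean was 7.33 ± 0.25 in GSK932121A livers and 7.65 ± 0.28 in vehicle livers (SD, n = 10 and 12), a 1.25-fold fall, or -0.32 ± 0.11 (SE) on the log2 scale (limma, adjusted p = 0.0499). Leaving out a single array ended the call for 15 of the 22 arrays, namely GSK932121A replicates 13, 14, 16, 21, 22, 23 and 24 and vehicle replicates 1, 2, 3, 4, 5, 7, 9 and 12, and the highest adjusted p, 0.106, came without GSK932121A replicate 13 (difference -0.25). It was also lost after median centring (adjusted p = 0.0597), after cyclic loess normalisation (0.0767), over all probe sets (0.088) and in the Wilcoxon rank sum test (0.157).

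Its paralog Eif4ebp2, which binds eIF4E in the same way, fell 1.33-fold, at 8.73 ± 0.27 in GSK932121A livers and 9.15 ± 0.14 in vehicle livers (SD, n = 10 and 12; limma, adjusted p = 0.00182), with 8 of 10 GSK932121A livers below every vehicle liver. The contrast Eif4ebp1 minus Eif4ebp2 shifted by 0.09 with a 95% interval from -0.13 to 0.32 (two-sided permutation test, adjusted p = 0.394 over 5 contrasts).

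The other genes of the pathway were counted by role, in 5 lists with 59 measured genes. In limma 6 rose and 8 fell, 23.7% of these genes against 12.4% of all genes, and their median log2 difference was -0.02. The largest single difference of these lists, that of Ddit4, lay outside the eIF2 machinery itself.

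Of 6 measured genes for subunits of eIF2 and eIF2B, 1 passed, 16.7% against 12.4% of all genes. Eif2b1, the alpha subunit of the exchange factor eIF2B, rose by 0.24 ± 0.07 (SE) on the log2 scale (limma, adjusted p = 0.0285), a call lost without GSK932121A replicate 18 (adjusted p = 0.0576). Eif2s1, the gene of eIF2alpha itself, differed by 0.22 ± 0.10 (SE) and did not pass (adjusted p = 0.169).

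Among 14 genes of cap binding and elongation, 2 rose and 3 fell, 35.7% of the list against 12.4% of all genes. Eif4g3, a scaffold of the cap-binding complex, rose 1.43-fold (limma, adjusted p = 0.012) and Eif4a1, an RNA helicase of that complex, 1.23-fold (adjusted p = 0.00851). Their paralogs Eif4g1 and Eif4a2 differed by -0.04 and -0.14 on the log2 scale and did not pass (adjusted p = 0.781 and 0.539). Beside Eif4ebp2, the genes that fell were Pdcd4, an inhibitor of eIF4A, 1.35-fold lower (adjusted p = 0.00304), and Eef2k, the kinase that inactivates elongation factor 2, 1.22-fold lower (adjusted p = 0.00502). Pdcd4 had 7 of 10 GSK932121A livers below every vehicle liver, and the Eif4g3 call was lost in the Wilcoxon rank sum test (adjusted p = 0.123). Eif4ebp3, the third gene of the eIF4E-binding proteins, did not pass, at a log2 difference of -0.22 ± 0.21 (SE; adjusted p = 0.572). Eif4e itself differed by 0.19 on the log2 scale and did not pass (adjusted p = 0.0719).

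Among 23 measured genes of mTORC1 and its regulators, 2 rose and 5 fell, 30.4% of the list against 12.4% of all genes. Ddit4, which encodes the stress-induced mTORC1 inhibitor REDD1, rose 2.41-fold, at 6.69 ± 0.75 in GSK932121A livers and 5.42 ± 0.20 in vehicle livers (SD, n = 10 and 12; limma, adjusted p = 9.24e-05), with 9 of 10 GSK932121A livers above every vehicle liver. Rraga, a Rag GTPase that brings mTORC1 to the lysosome, rose 1.22-fold (adjusted p = 0.00878). Castor2, of the arginine sensor family, fell 1.40-fold (adjusted p = 0.0073), and Nprl2, a subunit of the GATOR1 complex that inhibits the Rag GTPases, fell 1.19-fold (adjusted p = 0.0177).

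Deptor, an inhibitor of mTOR, Mlst8, a subunit of the mTOR complexes, and Sesn1, a sestrin that restrains mTORC1, fell by 0.25, 0.24 and 0.34 on the log2 scale (limma, adjusted p = 0.0427, 0.0456 and 0.0438). These 3 calls were near the limit: leaving out a single array ended them for 14, 15 and 16 of the 22 arrays, where the adjusted p reached 0.0847, 0.0987 and 0.0871. They were also lost in 5, 6 and 4 of the other 9 alternatives, each of them after median centring (0.0532, 0.0593 and 0.0566), after cyclic loess normalisation (0.129, 0.0645 and 0.102) and over all probe sets (0.073, 0.0769 and 0.0788). The count for this list was 4 without GSK932121A replicates 13 or 16 or vehicle replicates 1, 6 or 9, where the fit of all arrays gave 7. Sesn3, the third sestrin gene, differed by -0.12 and did not pass (adjusted p = 0.309).

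**Figure D4:**
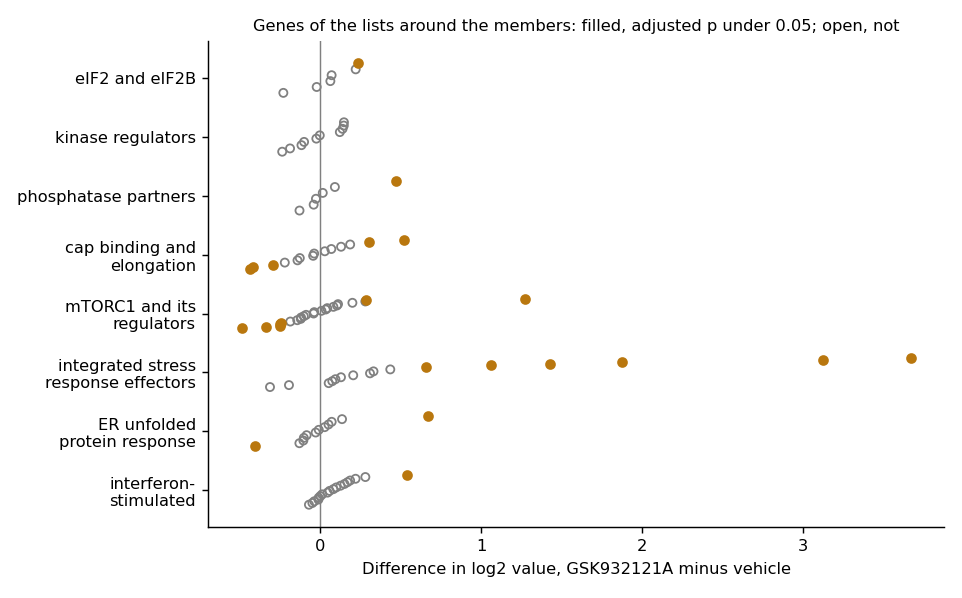
Difference in log2 value, GSK932121A minus vehicle (horizontal axis), of each measured gene in 8 lists (vertical axis). Filled points passed at an adjusted p under 0.05. The effectors of the integrated stress response extend furthest to the right, up to 3.67 for Chac1, while in the kinase regulator list no point is filled.

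Genes downstream of and beside the pathway were read in the same fit. Of 16 effectors of the integrated stress response, 6 rose and 0 fell, against 5.31% of all genes that rose and 7.05% that fell, and the median log2 difference was 0.32. Atf4, whose product is controlled mainly by translation, differed by 0.09 ± 0.07 (SE) and did not pass (limma, adjusted p = 0.447). Chac1 rose 12.7-fold, Atf3 8.73-fold, Gdf15 3.67-fold and Nupr1 2.69-fold (adjusted p = 3.61e-07, 0.000325, 0.011 and 3.76e-05), and the call of Gdf15 was lost in the Wilcoxon rank sum test (0.0685). These 4 are the largest of the 6 by choice, and Ppp1r15a, at 1.81-fold, lay below them. Cebpb and Ddit3, the rest of the 6, rose by 1.06 and 0.66 on the log2 scale (limma, adjusted p = 6.48e-06 and 0.000111), against 0.85 for Ppp1r15a. The other effectors on the list did not pass.

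Among 12 genes of the unfolded protein response of the endoplasmic reticulum, on which PERK reports, 2 passed, 16.7% against 12.4% of all genes. The median log2 difference of these 12 was -0.02. Edem1, which clears misfolded glycoproteins, rose 1.59-fold (limma, adjusted p = 2.4e-05) and the transcription factor gene Xbp1 fell 1.32-fold (adjusted p = 0.0149). Of 18 measured interferon-stimulated genes, 1 passed, 5.56% against 12.4% of all genes: Oasl, at 1.45-fold (adjusted p = 0.00583). That list had 2 genes that passed after cyclic loess normalisation, without GSK932121A replicate 17 and without vehicle replicate 6.

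Each member was also followed from liver to liver within its group. After subtraction of the group means, the genes most like Ppp1r15a over the 22 arrays were Atf3 (r = 0.90), Klf6 (0.89) and Fos (0.89), which encode stress-induced transcription factors. Within the GSK932121A livers alone these correlations were 0.95, 0.94 and 0.97 (n = 10), and within the vehicle livers 0.55, 0.61 and 0.43 (n = 12). They are the highest by choice, with unnamed loci and small RNA genes left out of the search, and are a description. All 3 genes rose with GSK932121A. For Ppp1r15b the most alike genes were Ube2q2 (0.79), Nf2 (0.75) and Phf2 (0.73), a different set.

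For Eif4ebp1 the most alike genes were Uqcr11 (r = 0.86), which encodes a small subunit of complex III, Urah (0.86) and Rpl36l6 (0.85). None of these 3 passed between the groups (limma, adjusted p = 0.795, 0.184 and 0.851). Their correlations with Eif4ebp1 were 0.76, 0.83 and 0.72 within the GSK932121A livers and 0.92, 0.87 and 0.92 within the vehicle livers. For Eif2ak1 the most alike genes were Cyp27a1 (0.80), Gmnn (0.78) and Lsm10 (0.77). For Eif2ak3 they were Kat7 (0.74), Cdk2 (0.73) and Txndc5 (0.72), and for Eif2ak4 Pdp1 (0.74), Tnp2 (0.71) and Foxa3 (0.71). No gene appears in more than 1 of these sets of 3.

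Of the 15 pairs of members, 0 passed within the GSK932121A livers and 1 within the vehicle livers, and by Pearson's r 1 pair in GSK932121A livers and 3 in vehicle livers had a permutation p under 0.05 before adjustment. In vehicle livers Eif2ak1 and Ppp1r15a varied together, with r = 0.84 (permutation p = 0.00041, adjusted p = 0.00615) and rho = 0.84 (permutation p = 0.00108, adjusted p = 0.0162), and r was 0.72 without the 2 arrays farthest from the Eif2ak1 median. In GSK932121A livers the same pair had r = -0.47 (permutation p = 0.166, adjusted p = 0.414) and rho = -0.66 (permutation p = 0.0436, adjusted p = 0.206). There r was -0.74 without the 2 arrays farthest from the Eif2ak1 median. The difference between the groups' correlations was not tested. By Spearman's rho, Eif2ak1 and Ppp1r15b also had an unadjusted p under 0.05 in GSK932121A livers (rho = 0.68, permutation p = 0.0354, adjusted p = 0.206). Their r was 0.49 (permutation p = 0.154, adjusted p = 0.414). By Pearson's r, the pair with an unadjusted p under 0.05 in GSK932121A livers was Eif2ak1 and Eif4ebp1 (r = 0.82, permutation p = 0.0094, adjusted p = 0.141). Its rho was 0.64 (permutation p = 0.0549, adjusted p = 0.206). Without the 2 arrays farthest from the Eif2ak1 median r was 0.23, so this correlation rests on those arrays. In vehicle livers that pair had r = 0.73 (permutation p = 0.00845, adjusted p = 0.0634) and rho = 0.73 (permutation p = 0.00867, adjusted p = 0.065), and r was 0.59 without the 2 farthest arrays. Ppp1r15a and Eif4ebp1 in vehicle livers had r = 0.66 (permutation p = 0.0182, adjusted p = 0.0909) and rho = 0.66 (permutation p = 0.0229, adjusted p = 0.115), and r was 0.34 without the 2 arrays farthest from the Ppp1r15a median.

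Markers of the cell types in liver were read beside these results. Of 8 measured hepatocyte markers only Cps1 passed, 1.25-fold higher, of 11 Kupffer cell and macrophage markers only Cd163, 1.28-fold higher, and of 6 endothelial markers only Lyve1, 1.16-fold higher (limma, adjusted p = 0.000789, 0.00461 and 0.0201). These were 12.5%, 9.09% and 16.7% of the measured markers of these types, against 12.4% of all genes. In limma 0 of 7 stellate, 6 cholangiocyte, 8 neutrophil, 10 lymphocyte and 6 erythroid markers passed, with 1, 0, 1, 5 and 0 at an unadjusted p under 0.05, against 24% of all genes. Of the 5 lymphocyte markers 3 were higher and 2 lower in GSK932121A livers. The mean log2 value of the macrophage markers ran from 7.53 to 8.02 in GSK932121A livers and from 7.44 to 8.08 in vehicle livers. That of the neutrophil markers ran from 3.69 to 4.41 in GSK932121A livers and from 3.61 to 4.11 in vehicle livers, and that of the erythroid markers from 4.95 to 5.68 in GSK932121A livers and from 4.98 to 5.51 in vehicle livers. Hepatocyte markers had mean values from 11.51 to 11.65 in GSK932121A livers and from 11.46 to 11.59 in vehicle livers. The part of other cell types in the differences of the members was not tested.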

How the data were processed

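In all, 1 array was run for each of 22 rat livers. The deposited log2 values come from RMA, per the submitters' processing notes. RMA as a method corrects background, normalises between arrays and summarises probes. Its software and version are not stated in the labels. The log base was taken from RMA. Values ran from 0.67 to 13.8. Normalisation removes any shift common to all genes. Differences and means over different probe sets, as in the paralog contrasts and marker means, are read between the groups and not as levels. The number of arrays limits the precision, and the labels name no batch.

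Of 36685 probe sets, 18511 had a single symbol, 575 several and 17599 none. The probe set with the highest mean stood for a gene, which left 18166 genes. Groups came from the sample titles. All genes were fitted in limma 3.58.1 (R 4.3.3) by group alone, with Benjamini-Hochberg adjustment over all genes and a threshold of 0.05. Paralog contrasts and pair correlations used 100000 permutations (numpy 2.4.6, scipy 1.17.1). Of the planned contrasts, those with Eif2ak2 or Sesn2 were not run. On simulated data for the 18166 genes of this comparison, the limma fit recovered 25.4% of 67 genes changed 1.2-fold. It recovered 89.6% of 67 changed 1.5-fold and 98.5% of 66 changed 2-fold. Only these genes were changed in the simulation, with normal noise of equal SD in both groups. In the data 12.4% of all genes passed and the SD of some genes differed between the groups, so recovery there can differ from these rates. The alternatives were median centring, renewed quantile and cyclic loess normalisation, a filter at a mean of 5, array weights, an intensity trend in a robust fit, the mean of probe sets, all probe sets, the Wilcoxon rank sum test and each array left out. The members, gene lists and motifs were chosen with earlier results of these data known. Named were all members, every pathway gene that passed, the 4 largest that passed of each list beside the pathway, a few fixed genes such as Atf4, and the 3 genes most like each member. The catalytic subunit genes, Eif4e, Eif4ebp3, Eif4g1, Eif4a2, Cebpb, Ddit3 and the cell type markers that passed were named after their values were seen. Array medians ran from 4.73 to 4.85 over all probe sets, and correlations between arrays across genes, which are not independent replicates, from 0.971 to 0.991. Promoter sequences are from RefSeq (GRCr8), and the set of promoters used held 5 of the 6 measured members, without Eif4ebp1.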

Additional observations from a re-analysis of the deposited data

Results flagged for a closer look

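Eif4ebp1 in GSK932121A replicate 13 had a log2 value of 6.69, the lowest of its group. The next lowest was 7.23 and the highest 7.54, so the gap took a share of 0.635 of the group's range, above Dixon's 95% critical value for 10 samples. Of 40 quantities tested in this way 1 stood out, and chance alone gives about 1 in 20. The difference without this liver is given above.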

How the results depend on the processing

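Under all 31 alternatives Ppp1r15a stayed higher (0.75 to 0.96 on the log2 scale) and Ppp1r15b lower (-0.45 to -0.36), with adjusted p up to 0.0104 and 0.0242, and Eif2ak1 kept its direction without passing. The paralog contrasts kept their direction and their side of the threshold under all 25 alternatives run on them. Eif2ak3 passed after renewed quantile normalisation (0.21), cyclic loess (0.23) and the filter at a mean of 5 (0.20), with values from 0.17 to 0.24 over the arrays left out. Eif2ak4 changed sign with cyclic loess (0.00302) and ran from -0.0659 to 0.0148 over the arrays left out. Eif4ebp1 lost its call with median centring (-0.31), cyclic loess (-0.28), all probe sets (-0.32) and the Wilcoxon rank sum test (-0.32), and ran from -0.36 to -0.25 over the arrays left out. The number of members that passed lay between 2 and 4, that of the 59 pathway genes between 11 and 17, and that of all genes between 1854 and 2582. Oma1, near 0 in all fits, changed sign with median centring (0.0117), renewed quantile normalisation (0.0238), cyclic loess (0.0177) and array weights (0.0155), and ran from -0.0412 to 0.0315 over the arrays left out. The causes were not tested. The mTORC1 list had 4 genes that passed with median centring or over all probe sets, and between 4 and 7 over the arrays left out. No paired analysis was possible because the groups share no replicate numbers. Signals near background limit what can be seen of small changes in dim genes.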
